A study of Mus musculus with 6 samples.

Results

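The cytosolic ribosome is built from ribosomal RNA and a fixed set of proteins, and the genes of these proteins were followed here in mouse livers by RNA-seq. Members were taken by name: gene rows whose symbol is Rpl or Rps followed by a number and at most 1 of the letters a, l, x or y, together with Rplp0, Rplp1, Rplp2 and Rpsa, with at least 10 raw counts over all libraries. Of 56847 gene rows, 83 had such a symbol and 80 had enough counts, 48 for the large subunit and 32 for the small subunit. The 3 rows left out were Rpl3l with 7 counts, Rpl39l with 6 and Rpl10l with 0. In mouse, Rpl3l is known from muscle and Rpl39l and Rpl10l from testis. Of the 80 members, 77 passed a filter on low counts and were tested, and Rpl24, Rpl6l and Rpl32l were not.

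The 6 libraries came from liver, 3 of mice fed CDAHFD and 3 of mice fed a normal diet. CDAHFD is a high-fat diet that lacks choline and gives its protein as defined amino acids, and it is used to bring on steatohepatitis in rodents. The series title asks about ALDH18A1 in metabolic dysfunction-associated steatohepatitis, and the submitters' design names pathways of lipids and of mitochondria. For strain, sex, age and time on the diet the sources used here give nothing, and the labels do not say that the libraries came from separate animals, so p-values measure only the spread between these samples.

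Total counts ran from 21986215 to 25628531 per library. The hepatocyte marker list (Alb, Apoa1, Ttr and others, 10 genes) summed to 158097 to 168406 TPM in CDAHFD livers and 159977 to 175175 TPM in Normal diet livers and was thus abundant in every library. TPM is a level of transcripts that allows for gene length and for the library's total. CPM is the count scaled to a common library size, here with TMM, a scaling that assumes most genes do not change. Fold changes are CDAHFD over Normal diet from edgeR's quasi-likelihood test with Benjamini-Hochberg adjustment over 14215 genes, with their standard error. That error was worked back from the test, as the absolute log2 fold change divided by the square root of the F statistic. A gene was called where the adjusted p was under 0.05.

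Ribosomal proteins hold the ribosomal RNA in shape, line the tunnel by which the nascent chain leaves, and form the acidic stalk (Rplp0, Rplp1 and Rplp2) that recruits the elongation factors. Their mRNAs are known to begin with a C followed by an unbroken run of pyrimidines, the 5′ terminal oligopyrimidine (TOP) tract. Through it, LARP1 and the nutrient-sensing kinase complex mTORC1 control their translation together. Hepatocytes make large amounts of secreted protein and use many ribosomes.

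The sequences around annotated start sites were searched for pyrimidine runs of this kind. In RefSeq's promoter table for the mouse build GRCm38.p6, 58 members had an entry. A run of at least 8 C or T that touched the 30 bases around the annotated start was present in 31 of the 58, or 53.4%, against 5416 of all 27025 genes in the table. The longest such run had a median length of 9 bases in the members and 5 bases in all genes. A start at C followed directly by 4 C or T was found in 14 members, 24.1%, against 2.79% of all genes. The motif CTTTCC on the transcribed strand began within these 30 bases in 9 members, 15.5%, against 1.86%. The ETS-type motif CCGGAA, searched on both strands of the 300 bases from 250 before to 50 after the start, was held by 30 members, 51.7%, against 15.2%. AAGATGGC, the core of the YY1 motif, was held by 5 members, 8.62%, against 2.86%. These are matches of letters and were not tested as sites. An annotated start may differ from the base where transcription begins, so these counts do not give the share of members with a TOP tract. The windows below belong to the called members that had an entry, and to Rps6 and Rplp2, which show a long run at the start. Each holds 15 bases before the annotated start and 15 from it, with the part of the longest C or T run that lies in the window in capitals, and the first one where runs tie.
Rpl41 (chr10:128549154-128549183, minus strand): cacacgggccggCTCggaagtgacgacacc
Rplp0 (chr5:115559452-115559481, plus strand): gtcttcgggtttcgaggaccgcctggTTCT
Rps27l (chr9:66946071-66946100, plus strand): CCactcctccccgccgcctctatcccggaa
Rpl35a (chr16:33056467-33056496, plus strand): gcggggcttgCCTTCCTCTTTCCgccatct
Rpl22 (chr4:152324421-152324450, plus strand): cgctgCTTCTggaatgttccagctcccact
Rps6 (chr4:86857353-86857382, minus strand): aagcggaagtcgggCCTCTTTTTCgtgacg
Rplp2 (chr7:141447636-141447665, plus strand): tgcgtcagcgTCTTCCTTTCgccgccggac
The run was 13 bases long in Rpl35a and 10 bases in Rps6 and in Rplp2, but 3 bases in Rpl41 and 5 bases in Rpl22. In Rplp0 it was 7 bases and in Rps27l 9 bases, each running past the edge of the window. The Rps27l window also holds a second run of the same length, and that of Rpl22 likewise. The files use the build GRCm39, so these positions were not set against theirs.

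A single Normal diet library stood apart in its ribosomal protein mRNAs. The members summed to 15066, 14480 and 15249 TMM-scaled CPM in the CDAHFD livers, against 15867, 11936 and 16111 in Normal diet replicates 1, 2 and 3. Replicate 2 of the Normal diet was the lowest of all 6 libraries for 57 of the 77 tested members and the lowest of its diet for 70. Its median log2 level over the members was 0.47 below the mean of the other 2 libraries of its diet, while no CDAHFD library lay further than 0.08 from the others of its own diet. The low values were not even across the members. Rplp1 was 1.16 lower on the log2 scale in that library and Rps29, a small-subunit protein, 1.04 lower, whereas Rpl35 was 0.29 higher and Rpl5 0.09 higher. In the same library the level of all genes moved with gene length: among 6 length classes of expressed genes, the median was −0.18 in the shortest and 0.20 in the longest. Normal diet replicate 3 ran the other way, with 0.12 in the shortest and −0.16 in the longest. Its reference includes replicate 2, so this opposite slope is not a separate observation. Of the members, 49 lie in the shortest class, and the part of length in the members' low values was not tested. Among the members themselves, the shift in replicate 2 had a Pearson r with log2 gene length of 0.27 (n = 77 genes that share the library). The RNA quality of this library was not assessed here. Where leaving it out changed the call of a gene whose fold change is given here, the value without it follows.

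**Figure D1:**
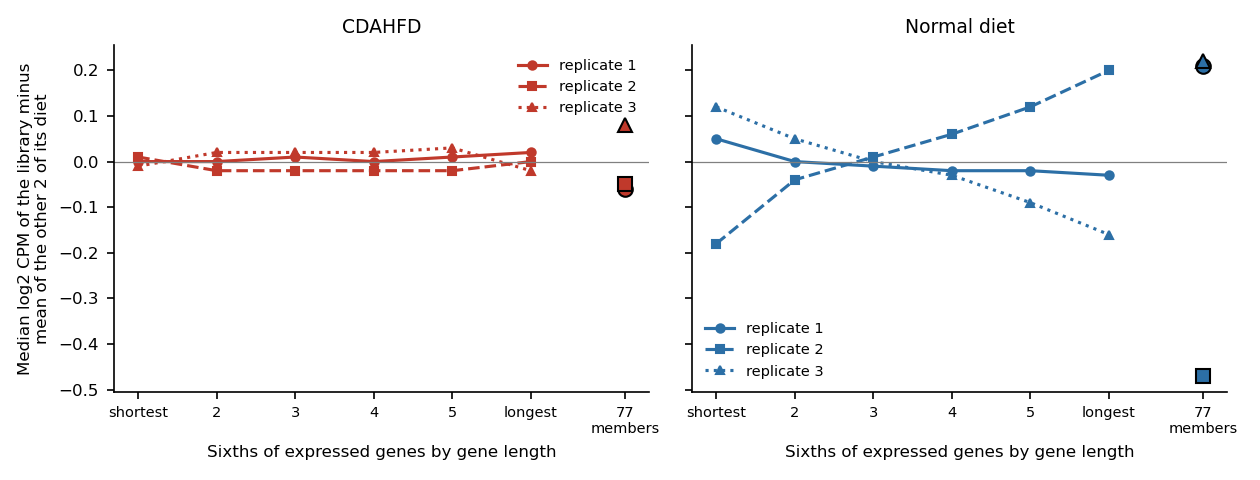
Median log2 CPM of each library minus the mean of the other 2 libraries of its diet (vertical axis), for 6 classes of expressed genes from shortest to longest and, as outlined symbols, for the 77 tested members, with CDAHFD in the left panel and Normal diet in the right. Normal diet replicate 2 climbs from −0.18 in the shortest class to 0.20 in the longest and its members lie at −0.47, while the CDAHFD libraries stay within 0.08 of 0.

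As a share of the library, ribosomal protein mRNAs were higher in CDAHFD livers, as were most genes. Scaled to total counts, the median log2 fold change was 0.36 for the members and 0.34 for all genes tested. The members took 1.69%, 1.58% and 1.74% of counts in CDAHFD replicates 1, 2 and 3, against 1.39%, 1.08% and 1.45% in the Normal diet replicates. All 3 CDAHFD libraries lay above all 3 Normal diet libraries. The means were 1.67% ± 0.0819 in CDAHFD and 1.31% ± 0.199 in Normal diet (SD, n = 3 each), a ratio of 1.28, or 1.18 without Normal diet replicate 2. By TPM the share was 2.81%, 2.60% and 2.90% in CDAHFD livers, against 2.20%, 1.73% and 2.27% in Normal diet livers, a ratio of 1.34, or 1.24 without that library. After TMM scaling the diets overlapped: summed CPM averaged 14932 ± 402 in CDAHFD and 14638 ± 2343 in Normal diet, a ratio of 1.02, and 0.934 without Normal diet replicate 2. TMM factors were 1.09 to 1.14 for CDAHFD and 0.877 to 0.907 for Normal diet libraries. Large-subunit members had 1.55 to 1.60 counts per count of the small subunit in CDAHFD livers and 1.56 to 1.58 in Normal diet livers. In bulk liver, fewer cells of a type and less RNA per cell cannot be told apart.

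**Figure D2:**
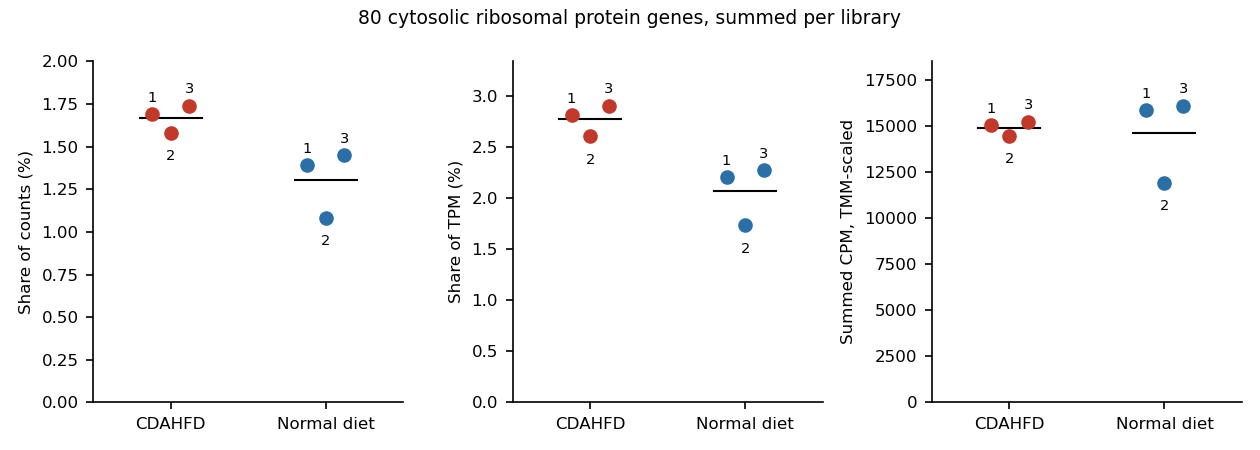
Sum over the 80 members in each library as a percentage of counts, as a percentage of TPM and as TMM-scaled CPM, with CDAHFD left of Normal diet; points are libraries marked with their replicate number and lines are group means. CDAHFD lies above Normal diet in both shares, while in TMM-scaled CPM the 2 diets overlap and Normal diet replicate 2 lies lowest, at 11936.

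Members differed widely in level. Mean TPM over the 6 libraries had a median of 242 across the 80 members, with quartiles of 130 and 364. Rplp1, the small acidic protein at the tip of the stalk, was the highest at 1629 TPM and ranked 74 among all genes. It was followed by Rps15, a protein of the small-subunit head, at 1139 TPM, and by Rplp0, the base of the stalk, at 1068 TPM. Rps2, a small-subunit protein near the mRNA entry, came next at 887 TPM, ahead of Rpl4, whose loop narrows the exit tunnel, at 837 TPM, and of the large-subunit protein Rpl36 at 815 TPM. Neighbours in this order overlapped: Rps2 had 927, 872 and 1052 TPM in CDAHFD and 891, 697 and 882 TPM in Normal diet livers, a range that overlaps those of Rpl4 and Rpl36.

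At the other end, 10 members were under 50 TPM and 5 under 10 TPM. Rpl13a, a large-subunit protein that in human cells also serves in the interferon-dependent GAIT complex, averaged 6.19 TPM. Rps10, of the small-subunit head, averaged 1.31 TPM, and Rpl24, which bridges to the small subunit, averaged 0.314 TPM from 16 counts in all. Rpl6l and Rpl32l averaged 0.807 and 0.759 TPM from 36 and 15 counts. Ribosomal protein genes have many processed copies in the genome, and reads from both cannot always be assigned. Of 77 members with a coding sequence in the GENCODE M21 transcripts, 27 had no 50-base stretch that is absent from the transcripts of every other gene, and 53 had under 20% of such stretches. The members without a coding sequence there were Rpl6l, Rpl32l and Rps4l. The share of unique stretches was 0.0% for Rpl24, 2.5% for Rpl13a and 10.5% for Rps10, against 95.5% for Rpl41 and 39.7% for Rplp0. It describes only the longest annotated coding sequence of each gene, 138 bases in Rpl41, and not the untranslated parts or other transcripts. Over the tested members with a value, which leaves out Rpl24, the share and the TPM had a Spearman rho of 0.06 (n = 76 genes from the same libraries). A row under another name, Gm10076, shares 4.5% of the Rpl41 stretches and held 10501 counts, against 28696 for Rpl41. How reads that map to several places were counted is not known here, and values of single members are uncertain to that extent. The rows named as ribosomal protein pseudogenes (300, of which 43 had at least 10 counts) held 0.206% to 0.228% as many counts as the members in CDAHFD livers and 0.196% to 0.233% in Normal diet livers. These rows leave out sharing rows under other names, such as Gm10076 and BC004004. The latter shares 53.6% of the Rpl21 stretches and held 10988 counts, so the percentages do not measure all look-alike rows.

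**Figure D3:**
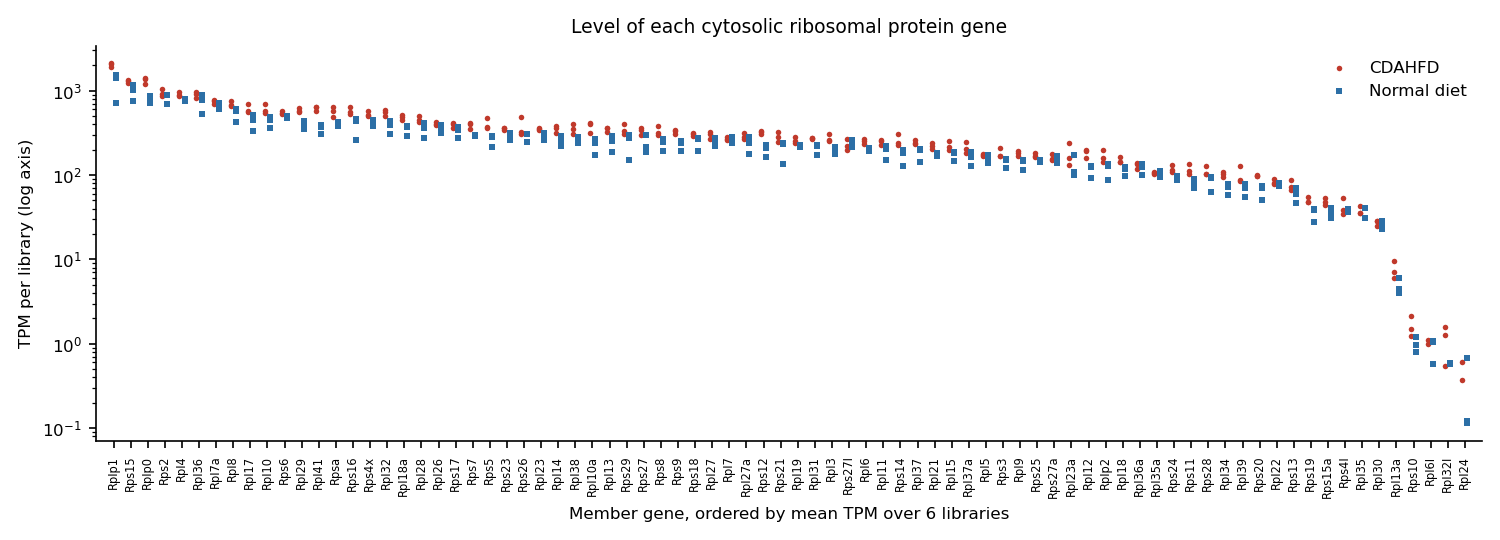
TPM of each of the 80 members in each library on a log axis, ordered by mean TPM, with CDAHFD as red circles and, to their right, Normal diet as blue squares; values of 0, present for Rpl24, Rpl6l and Rpl32l in 1 library each, are not drawn. The middle of the family lies between 130 and 364 TPM, with Rplp1 highest and 5 members under 10 TPM.

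Few members were called. With TMM scaling, 2 of the 77 tested members were called higher, against 28.5% of all genes tested, and 4 were called lower, against 23.5% of all genes. The members' log2 fold changes had a median of 0.03, an SD of 0.185 and a range of −0.43 to 0.42. Over all genes the median was 0.01 and the SD 1.14. All 77 tested members lay within 0.5 of 0 on the log2 scale, against 55.1% of all genes. Large-subunit members had a median of 0.02, with 2 higher and 3 lower of 45, and small-subunit members a median of 0.05, with 0 higher and 1 lower of 32. By an unadjusted edgeR p under 0.05, 9 members passed in either direction, against 8200 of all 14215 genes. DESeq2 called 2 of 80 members higher, against 21.6% of the genes it tested, and 6 lower, against 19.2%. The 2 diets did not overlap in CPM for 3 members with CDAHFD above, against 32.2% of all genes, and for 7 members with CDAHFD below, against 28.4%.

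The direction of the family depended on the scaling and on Normal diet replicate 2. Scaled to total counts, 39 of 77 members were called higher, against 44.0% of all genes, and 0 lower, against 8.07%, and the members' median was 0.36 beside 0.34 for all genes. In that fit the unadjusted p of 48 members was under 0.05, against 8202 of all 14215 genes. With limma on log2(TPM + 1), 41 of 78 members were called higher, against 42.8% of all genes, and 0 lower, against 6.36%. Without Normal diet replicate 2, the TMM fit called 0 members higher, against 27.0% of all genes, and 9 lower, against 21.0%, with a median of −0.12, and total counts called 18 higher, against 43.2%, and 0 lower, against 6.63%, with a median of 0.22. In that TMM fit the unadjusted p of 17 members was under 0.05, in either direction, against 8033 of all 14661 genes. Shares of calls over all genes moved likewise: 54.8% of called genes were higher with TMM and 84.5% with total counts.

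**Figure D4:**
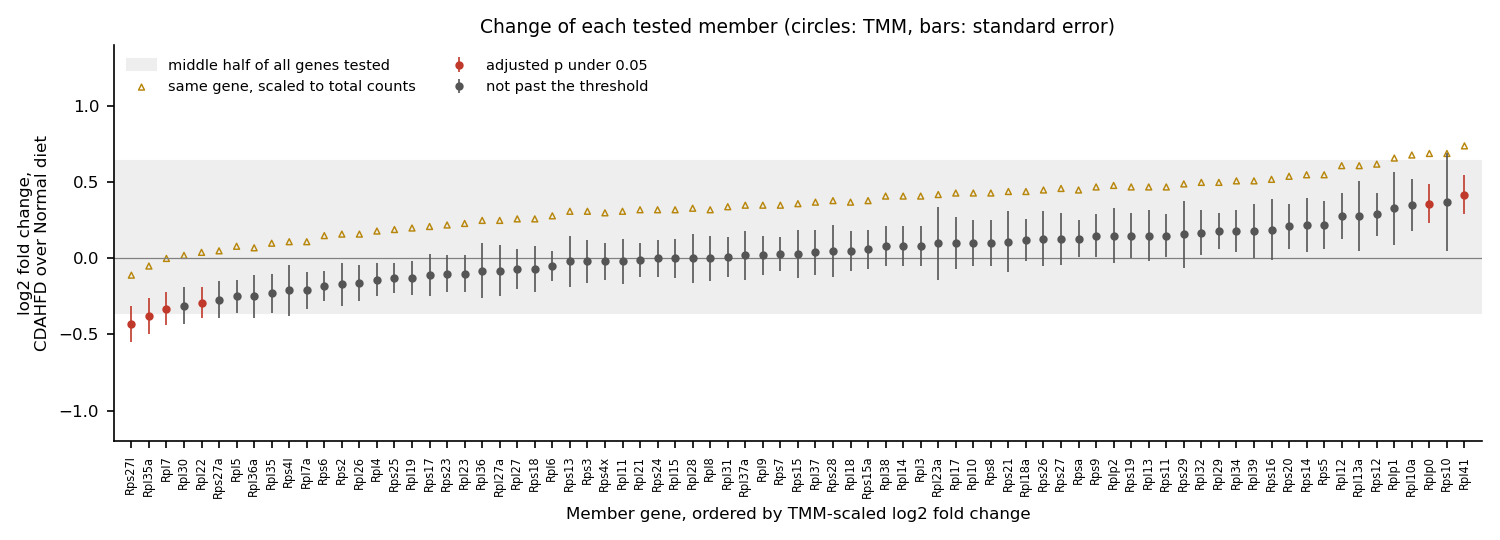
log2 fold change (CDAHFD over Normal diet) for each of the 77 tested members, ordered by the TMM-scaled value (circles with standard error bars, red where called), with the same gene scaled to total counts as open triangles and the range between the quartiles of all genes tested as a grey band. Red circles mark 4 members at the low end and 2 at the high end, and the triangles lie above the circles throughout.

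The members called higher were a stalk protein and the smallest ribosomal protein. Rpl41, a short basic peptide of the large subunit, had 239, 225 and 232 CPM in CDAHFD livers, against 186, 139 and 197 CPM in Normal diet livers. The diets did not overlap, and the log2 fold change was 0.42 ± 0.13 (edgeR adjusted p = 0.0205). Rplp0 had 722, 661 and 739 CPM in CDAHFD livers, against 586, 461 and 608 CPM in Normal diet livers. Here too every CDAHFD value was above every Normal diet value, with a log2 fold change of 0.36 ± 0.13 (edgeR adjusted p = 0.0345). With total counts both were also called, Rpl41 at 0.74 and Rplp0 at 0.69 on the log2 scale. Neither TMM call held without Normal diet replicate 2, where Rpl41 was at 0.27 ± 0.10 (edgeR adjusted p = 0.0517) and Rplp0 at 0.23 ± 0.11 (edgeR adjusted p = 0.112). Of the 6 fits that leave out 1 library, Rpl41 was called in 2, those without Normal diet replicate 1 or 3, and Rplp0 in 1, that without Normal diet replicate 3. In the other fits the edgeR adjusted p reached 0.0939 for Rpl41 and 0.144 for Rplp0.

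The rest of the stalk was not called with TMM. Rplp1 had 327, 315 and 328 CPM in CDAHFD livers, against 302, 141 and 327 CPM in Normal diet livers. The ranges overlapped and Normal diet replicate 2 lay far below the others. The log2 fold change was 0.33 ± 0.24 (edgeR adjusted p = 0.264), and 0.03 ± 0.10 without Normal diet replicate 2. Rplp2, the partner of Rplp1, was at 0.15 ± 0.18, and Rpl12, which sits at the foot of the stalk, at 0.28 ± 0.15. Per length, Rplp1 had 2064, 1908 and 2105 TPM in CDAHFD livers and 1425, 721 and 1549 TPM in Normal diet livers, so that on the TPM scale the diets did not overlap. The same was seen for Rplp0 in TPM, with 1370, 1203 and 1427 in CDAHFD livers and 832, 710 and 866 in Normal diet livers. In TPM, CDAHFD lay above Normal diet without overlap for 57 of the 77 members, against 51.8% of all genes, and below for 0, against 8.74%.

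The members called lower were Rps27l, Rpl35a, Rpl7 and Rpl22. Rps27l, a paralog of Rps27 known as a target of p53, had 51.4, 60.0 and 67.9 CPM in CDAHFD livers, against 82.7, 83.4 and 75.4 CPM in Normal diet livers. The diets did not overlap, and its log2 fold change was −0.43 ± 0.12 (edgeR adjusted p = 0.00997). It was called in all 6 fits that leave out 1 library and was at −0.41 ± 0.13 without Normal diet replicate 2, in which its level was not low. Its parent Rps27 had 115, 102 and 117 CPM in CDAHFD livers, against 96.8, 75.9 and 133 CPM in Normal diet livers, with a log2 fold change of 0.13 ± 0.17 (edgeR adjusted p = 0.554), and 0.36 (edgeR adjusted p = 0.0434) without Normal diet replicate 3.

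Rpl35a, a large-subunit protein whose gene is mutated in some human patients with Diamond-Blackfan anaemia, had 121, 124 and 114 CPM in CDAHFD livers, against 165, 132 and 169 CPM in Normal diet livers. Every CDAHFD value was below every Normal diet value, and the log2 fold change was −0.38 ± 0.12 (edgeR adjusted p = 0.0186). Without Normal diet replicate 2 it was −0.49 ± 0.10 (edgeR adjusted p = 0.00281). The large-subunit protein Rpl7 had 223, 250 and 223 CPM in CDAHFD livers, against 319, 278 and 275 CPM in Normal diet livers, a log2 fold change of −0.33 ± 0.11 (edgeR adjusted p = 0.0265). Rpl22, which in mice is needed for the development of αβ T cells, had 71.6, 78.1 and 81.3 CPM in CDAHFD livers, against 100, 89.4 and 92.5 CPM in Normal diet livers. The diets did not overlap for either gene, and the log2 fold change of Rpl22 was −0.29 ± 0.10 (edgeR adjusted p = 0.0333). Of the 6 fits that leave out 1 library, Rpl35a was called in 3 and lost its call without CDAHFD replicate 3 or Normal diet replicate 1 or 3 (edgeR adjusted p up to 0.0672). Rpl7 was called in 3 and lost its call without CDAHFD replicate 1 or 3 or Normal diet replicate 1 (edgeR adjusted p up to 0.113). Rpl22 was called in 4 and lost its call without CDAHFD replicate 1 or Normal diet replicate 1 (edgeR adjusted p up to 0.118).

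None of these 4 was called with total counts. There Rps27l was at −0.11, Rpl35a at −0.05 (edgeR adjusted p = 0.736) and Rpl22, with its sign turned, at 0.04 (edgeR adjusted p = 0.799), while the adjusted p of Rpl7 was 0.984. Per length, Rpl35a had 108, 106 and 103 TPM in CDAHFD livers and 110, 95.8 and 113 TPM in Normal diet livers, values that overlapped. Scaled to the summed counts of the members, 0 members were called higher, against 22.7% of all genes, and 0 lower, against 15.9%. This scaling sets each member against the others, but the fit still ran over all genes and standard errors changed. They were 0.20 for Rps27l and 0.17 for Rpl41, against 0.12 and 0.13 with TMM, but 0.20 against 0.24 for Rplp1. The 0 calls thus do not show that no member departed from the others. In that fit 3 members had an unadjusted edgeR p under 0.05, against 6784 of all 14215 genes. Rps27l came nearest to a call with −0.49 (edgeR adjusted p = 0.0566), ahead of Rpl35a with −0.41 (edgeR adjusted p = 0.0660) and Rpl41 with 0.39 (edgeR adjusted p = 0.0723). Without Normal diet replicate 2, an alternative added after the data were seen, this scaling called Rpl41 at 0.38 ± 0.10 (edgeR adjusted p = 0.0140) and Rplp0 at 0.34 ± 0.11 (edgeR adjusted p = 0.0329) higher, against 30.3% of all genes. It called Rpl35a lower at −0.38 ± 0.10 (edgeR adjusted p = 0.0151), against 14.2% of all genes. Rps27l was at −0.31 and not called there (edgeR adjusted p = 0.0811). Scaled to the summed members, these 3 genes were called only in that added fit, while all 3 were called with TMM.

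Several members are known for a second role or a special site, and those that follow were not called with TMM. Rpl5 and Rpl11 travel with 5S ribosomal RNA and, when ribosome assembly stalls, bind the p53 regulator MDM2. Rpl5 had 212, 222 and 218 CPM in CDAHFD livers, against 275, 268 and 230 CPM in Normal diet livers, without overlap but with an edgeR adjusted p of 0.0762 (log2 fold change −0.25 ± 0.11). Without Normal diet replicate 3 it was called, at −0.33 (edgeR adjusted p = 0.0297). Rpl11 had 224, 202 and 215 CPM in CDAHFD livers, within the range of 161 to 254 CPM in Normal diet livers, at −0.02 ± 0.15. Rps6, the substrate of the S6 kinases downstream of mTORC1, had 290, 278 and 266 CPM in CDAHFD livers, against 335, 293 and 316 CPM in Normal diet livers. Its diets did not overlap, and its log2 fold change was −0.18 ± 0.10 (edgeR adjusted p = 0.177). Rpsa, also described as a laminin receptor, was at 0.13 ± 0.12. Rpl10, which joins the large subunit late near the peptidyl transferase centre, was at 0.10 ± 0.15, and Rpl3, which reaches into that centre, at 0.08 ± 0.13. Rpl39, a tunnel protein, was at 0.18 ± 0.18, Rps4x at −0.02 ± 0.12 and its paralog Rps4l at −0.21 ± 0.17, with Rps4l called at −0.50 (edgeR adjusted p = 0.0184) without CDAHFD replicate 2.

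Of the other members with large changes by size, none was called with TMM. Rps12, a small-subunit protein, had 197, 215 and 210 CPM in CDAHFD livers, against 194, 132 and 182 CPM in Normal diet livers, without overlap (log2 fold change 0.29 ± 0.14, edgeR adjusted p = 0.106). Rpl10a, of the arm of the large subunit where used tRNAs leave, was at 0.35 ± 0.17 (edgeR adjusted p = 0.115), and called at 0.50 (edgeR adjusted p = 0.0311) without Normal diet replicate 3. Rps10 and Rpl13a, both scarce here, were at 0.37 ± 0.32 and 0.28 ± 0.23. On the low side, Rpl30 had 23.9, 28.8 and 26.9 CPM in CDAHFD livers, against 36.9, 31.7 and 29.6 CPM in Normal diet livers, without overlap (log2 fold change −0.31 ± 0.12, edgeR adjusted p = 0.0543). It was called without CDAHFD replicate 2 (−0.41, edgeR adjusted p = 0.0380) or Normal diet replicate 3 (−0.38, edgeR adjusted p = 0.0254). Rps27a, which is made as a fusion with ubiquitin, was at −0.27 ± 0.12 and Rpl36a at −0.25 ± 0.14. Without Normal diet replicate 2 both were called lower, at −0.37 ± 0.11 (edgeR adjusted p = 0.0235) and −0.41 ± 0.11 (edgeR adjusted p = 0.0116). The abundant members Rps15, Rps2, Rpl4 and Rpl36 were at 0.03 ± 0.16, −0.17 ± 0.14, −0.14 ± 0.11 and −0.08 ± 0.18. Rps2 was called lower at −0.32 (edgeR adjusted p = 0.0401) and Rpl36 at −0.31 (edgeR adjusted p = 0.0428) without Normal diet replicate 2.

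The spread within a diet was also followed. The coefficient of variation of CPM had a median of 7.2% over the members in CDAHFD livers and 17.8% in Normal diet livers, and 5.13% in Normal diet livers without replicate 2. For all genes tested it was 10.5%, 13.6% and 9.64% in the same order. The genes whose CPM followed the mean of the members most closely over the 6 libraries were Fabp5, Ndufa8, U2af2, Uqcrq and Mlf2, with Pearson r between 0.958 and 0.978, a description over 6 libraries. The members' own mean was lowest in Normal diet replicate 2, so genes chosen by this correlation were all but bound to be low there. All 5 were lowest in that library, for example Fabp5, a fatty acid carrier, with 54.0, 59.0 and 65.7 CPM in CDAHFD livers and 64.7, 14.9 and 76.4 CPM in Normal diet livers.

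Some ribosomal proteins and paralogs have symbols outside the naming pattern. Of 9 such genes, 0 were called higher and 2 lower with TMM, with a median of −0.06. Over all genes tested, 28.5% were called higher and 23.5% lower with TMM, and 44.0% and 8.07% with total counts. The counts of every list below are to be read beside these shares. For this list and for each list below that had 0 genes called higher with TMM, 0 were called higher by DESeq2 and 0 had an unadjusted edgeR p under 0.05 in that direction. Rps3a1, a small-subunit protein, had 271, 248 and 222 CPM in CDAHFD livers, against 344, 295 and 306 CPM in Normal diet livers (log2 fold change −0.35 ± 0.12, edgeR adjusted p = 0.0237). Rpl7l1, a paralog of Rpl7, had 46.3, 47.7 and 52.6 CPM in CDAHFD livers, against 67.5, 67.4 and 71.5 CPM in Normal diet livers (log2 fold change −0.49 ± 0.10, edgeR adjusted p = 0.00153). With total counts they were at −0.03 and −0.17 and neither was called, and Rps3a1 also lost its TMM call without CDAHFD replicate 3 or Normal diet replicate 1 (edgeR adjusted p up to 0.0976). Fau, which encodes a ribosomal protein fused to a ubiquitin-like protein, was at −0.09 ± 0.15, and called at −0.27 (edgeR adjusted p = 0.0487) without Normal diet replicate 2. Rack1, the scaffold on the small subunit, was at 0.21 ± 0.15, and at 0.05 without that library, and Rpl22l1, Rpl36al, Rps27rt and Rpl37rt lay between −0.06 and 0.31. Of 78 genes of the mitochondrial ribosome, 27 were called lower and 2 higher with TMM, with a median of −0.19, and with total counts 9 lower and 12 higher, with a median of 0.13. The difference between the cytosolic and the mitochondrial set was not tested.

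The factors that assemble ribosomes and start translation are given from lists, and their difference from the ribosomal proteins was not tested. Of 59 assembly factors, 27 were called lower and 1 higher, with a median of −0.31. Gnl3 (nucleostemin) had 21.9, 16.3 and 19.8 CPM in CDAHFD livers, against 36.0, 39.7 and 38.9 CPM in Normal diet livers (log2 fold change −0.99 ± 0.13, edgeR adjusted p = 6.88e-05). Nmd3, the export adapter of the large subunit, had 17.3, 19.4 and 18.2 CPM in CDAHFD livers, against 33.2, 38.2 and 31.8 CPM in Normal diet livers (−0.91 ± 0.11, edgeR adjusted p = 6.26e-05). Riok2, a kinase of small-subunit maturation, was at −0.91 ± 0.16 and Mphosph10, of the small-subunit processome, at −0.72 ± 0.22. Mphosph10 was not called without Normal diet replicate 2 (−0.45, edgeR adjusted p = 0.0685) or CDAHFD replicate 3 (−0.60, edgeR adjusted p = 0.0512). Fbl, the methyltransferase that small nucleolar RNAs direct to ribosomal RNA, was at −0.11 ± 0.12 and Nop56, its partner, at −0.23 ± 0.13, with Nop56 called at −0.40 (edgeR adjusted p = 0.0270) without CDAHFD replicate 3. Eif6, which keeps free large subunits from joining, was the only factor of this list called higher with TMM, at 0.64 ± 0.19 (edgeR adjusted p = 0.0129), but not without Normal diet replicate 2 (0.48, edgeR adjusted p = 0.0516) or CDAHFD replicate 3 (0.39, edgeR adjusted p = 0.0934). With total counts, 4 assembly factors were lower and 10 higher, with a median of 0.01, and Gnl3, Nmd3 and Riok2 were still called lower at −0.66, −0.59 and −0.59.

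Of 24 initiation factors, 10 were called lower and 0 higher with TMM, with a median of −0.27. Eif4a2, an RNA helicase that unwinds 5′ ends, had 147, 171 and 118 CPM in CDAHFD livers, against 305, 285 and 252 CPM in Normal diet livers (log2 fold change −0.95 ± 0.14, edgeR adjusted p = 0.000204). Eif5, the GTPase activator of the initiation complex, was at −0.92 ± 0.13 (edgeR adjusted p = 0.000148), Eif2s3x, a subunit of eIF2, at −0.63 ± 0.10 and Eif2b1, of its exchange factor, at −0.56 ± 0.11. Eif4a2, Eif5 and Eif2s3x also passed with total counts, where 3 of the list were lower and 3 higher. Eif1 and Eif1ax, which help to find the start codon, were at −0.38 ± 0.16 and −0.15 ± 0.10 and were not called, but Eif1 was at −0.57 (edgeR adjusted p = 0.00189) without Normal diet replicate 2. Of 14 other mRNAs known to carry a TOP tract, 1 was called higher and 2 lower with TMM, with a median of −0.15, and with total counts 4 higher and 0 lower, the same 0 by an unadjusted edgeR p. Hnrnpa1, a splicing factor, was at 0.59 ± 0.10 (edgeR adjusted p = 0.000664), Eif4b, a helper of the helicase, at −0.54 ± 0.10 (edgeR adjusted p = 0.000863) and Eif3e at −0.41 ± 0.10 (edgeR adjusted p = 0.00684). The elongation factors Eef1a1 and Eef1b2 were at −0.23 ± 0.12 and −0.09 ± 0.13.

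Of 15 genes for RNA polymerase I, its factors and 5S transcription, 2 were called higher and 3 lower with TMM, with a median of −0.07. Taf1c, a subunit of the selectivity factor, had 3.32, 3.58 and 3.04 CPM in CDAHFD livers, against 1.03, 0.637 and 1.35 CPM in Normal diet livers (log2 fold change 1.72 ± 0.27, edgeR adjusted p = 0.000344). Its partner Taf1a was at −0.52 ± 0.18 (edgeR adjusted p = 0.0343) and Rrn3, which recruits the polymerase, at −0.54 ± 0.11 (edgeR adjusted p = 0.00133). Tcof1 (treacle) was at 0.45 ± 0.15 (edgeR adjusted p = 0.0258), and the large subunits Polr1a and Polr1b were at −0.23 ± 0.10 and −0.37 ± 0.14. Leaving out Normal diet replicate 2 put Taf1a at −0.49, not called (edgeR adjusted p = 0.0737) and Polr1b at −0.49, called (edgeR adjusted p = 0.0144). Without CDAHFD replicate 3, Taf1a (−0.40) and Tcof1 (0.27) were not called and Polr1b was called (−0.50). Taf1a was also not called without Normal diet replicate 3 (−0.50), nor Tcof1 without Normal diet replicate 1 (0.37). With total counts, 6 of the list were higher and 0 lower, also 0 lower by an unadjusted edgeR p under 0.05, so the 3 lower calls were lost. Of 8 noncoding host genes of small nucleolar RNAs, several of which carry TOP tracts too, Snhg3 had 0 counts in every library and 3 of the other 7 were called lower with TMM, with a median of −0.47 over the 7. Gas5 was at −0.49 ± 0.16, Snhg1 at −0.75 ± 0.23 and Snhg8 at −0.70 ± 0.20. Gas5 lost its call without CDAHFD replicate 3 or Normal diet replicate 1, Snhg1 without CDAHFD replicate 3 or Normal diet replicate 3, and Snhg8 without Normal diet replicate 1, with edgeR adjusted p up to 0.0896, 0.0638 and 0.0510. With total counts 0 of the 7 were called by edgeR and 0 had an unadjusted p under 0.05.

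Among 19 genes of mTORC1, LARP1 and MYC, 4 were called higher and 5 lower with TMM. Myc, a transcription factor that raises ribosome production, had 57.2, 44.9 and 25.1 CPM in CDAHFD livers, against 8.55, 16.1 and 4.05 CPM in Normal diet livers. The diets did not overlap, and the log2 fold change was 2.15 ± 0.40 (edgeR adjusted p = 0.000913). Eif4ebp1, which holds back cap-dependent initiation until mTORC1 phosphorylates it, was at 0.93 ± 0.18 (edgeR adjusted p = 0.00120). Rps6kb1, the S6 kinase, was at −0.90 ± 0.15 (edgeR adjusted p = 0.000404) and Pdcd4, an inhibitor of the eIF4A helicase, at −0.92 ± 0.14 (edgeR adjusted p = 0.000266). Mtor and its partner Rptor were at −0.24 ± 0.10 and −0.19 ± 0.11 and were not called, with Mtor called at −0.33 (edgeR adjusted p = 0.0343) without CDAHFD replicate 3. Myc, Eif4ebp1, Rps6kb1 and Pdcd4 also passed with total counts, in the same directions. Of 11 genes of ribosome rescue, 5 were called lower and 0 higher with TMM, with a median of −0.36. Abce1, which splits ribosomes, was at −0.60 ± 0.13, Hbs1l, the partner of Pelo, at −0.59 ± 0.10, Usp10, a deubiquitinase of the small subunit, at −0.59 ± 0.10 and Ltn1, a ligase for stalled chains, at −0.52 ± 0.10. With total counts 3 were higher and 0 lower, with 2 lower by an unadjusted edgeR p under 0.05.

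**Figure D5:**
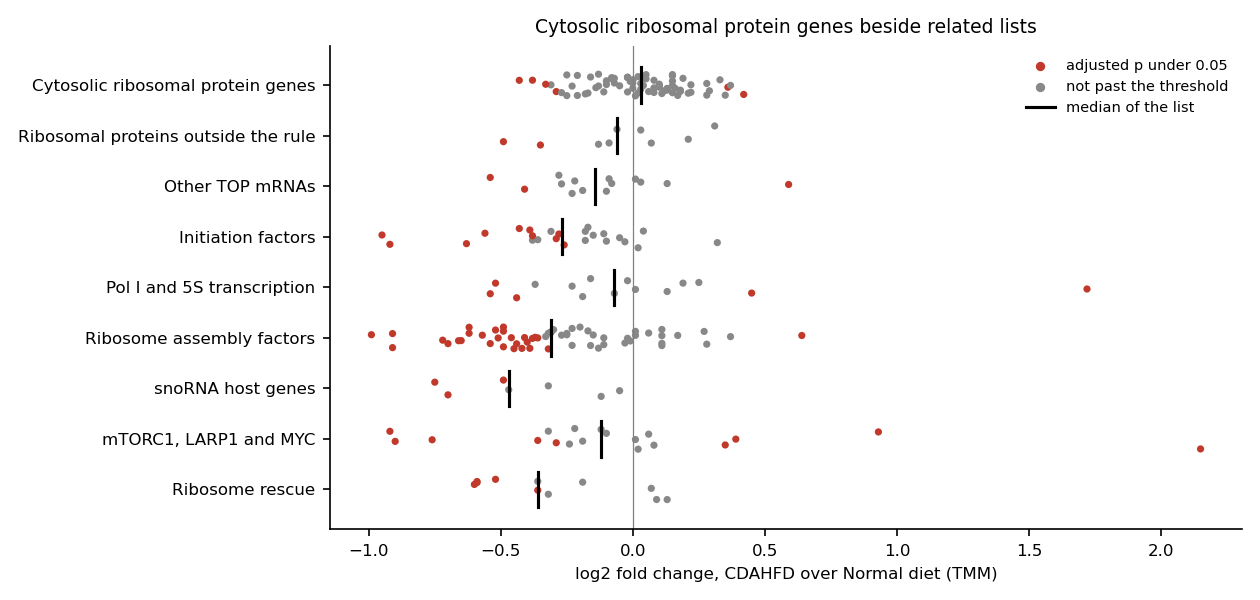
TMM-scaled log2 fold changes (CDAHFD over Normal diet) for the tested genes of the cytosolic ribosomal protein family (top) and of 8 lists of related genes; each point is a gene, red where called, and the black bar is the median of the list. The family sits at a median of 0.03 within −0.43 to 0.42, while the medians of assembly factors and initiation factors are −0.31 and −0.27.

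The livers also differed in cells other than hepatocytes, and those values stand beside the family's. With TMM, 8 of 9 macrophage markers were higher, with 2615 to 2814 summed TPM in CDAHFD livers and 427 to 581 in Normal diet livers. The 8 stellate cell and fibroblast markers were all higher, with 510.0 to 620.0 summed TPM in CDAHFD and 92.1 to 113.0 in Normal diet livers, as were 7 of 8 T and NK cell markers, 5 of 5 dendritic cell markers and 5 of 5 cholangiocyte markers. Among 3 tested neutrophil, 5 tested B and plasma cell and 4 cycling cell markers, 3 of each list were higher, while 1 of 6 endothelial markers was higher and 1 of 4 erythroid markers lower. Of 10 hepatocyte markers 7 were lower and 0 higher with TMM, and none of the markers was at 0 in all libraries. Scaled to the summed hepatocyte markers instead, 49 of 77 members were called higher, against 46.4% of all genes, and 0 lower, against 6.09%, with a median of 0.42 beside 0.40 for all genes. The part of the cell makeup in the family's share was not tested.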

How the data were processed

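The authors deposited read counts per gene and TPM for 6 libraries. Per the labels' protocols, TRIzol total RNA went into a stranded poly(A) library kit, and per the submitters' processing notes reads were aligned with STAR 2.7.11a to GRCm39. The counter, the annotation and the strand setting are unknown here. Symbols matched 51911 of 56847 gene IDs. Counts were tested with edgeR 4.0.16 in R 4.3.3 (TMM, filterByExpr with a minimum count of 10, quasi-likelihood test on diet, Benjamini-Hochberg adjustment); the biological coefficient of variation was 0.136. DESeq2 1.42.0 and limma 3.58.1 on log2 TPM were alternatives, as were other scalings, filters, a replicate block and leaving out each library. Members and gene lists were chosen with earlier results of these data known. Named members are the 8 largest changes each way, the 6 most abundant, paralogs ending in l, untested members and a fixed list. From each related list the first 2 genes and up to 4 largest called changes are named; the 5 genes most like the family are those of at least 50 mean CPM with the highest Pearson r; others named (Rps29, Rpl35, Eif6) were chosen after their values were seen. The 50-base stretches were compared over 141767 GENCODE M21 transcripts. Gene length is the one behind the authors' TPM, taken from the ratio of counts to TPM. Within a diet, libraries differed by more than sampling noise (chi-square per degree of freedom 17.5 to 39.7). The scripts were tested on simulated data. The values of 1 gene of the list of ribosomal proteins outside the naming pattern are not reported here.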

Additional observations from a re-analysis of the deposited data

How the results depend on the processing

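With TMM, 2 members were called higher and 4 lower; the numbers below are in that order. Total counts gave 39 and 0, hepatocyte-marker scaling 49 and 0, limma on log2(TPM + 1) 41 and 0 and on log2(TPM + 0.1) 40 and 0, scaling to the summed members 0 and 0, and no filter 4 and 3. Leaving out each library gave 0 to 4 higher and 1 to 9 lower, against 3530 to 4104 and 2871 to 3416 of 14423 to 14670 genes tested. Over all genes, limma on log2(TPM + 0.1) called 5558 higher and 824 lower of 13136, and no filter 4621 and 3388 of 26131. After seeing the data, 2 fits without Normal diet replicate 2 were added: scaled to the summed members 2 and 1, and to total counts 18 and 0. The members' median, 0.03 with TMM, was 0.36 with total counts, 0.42 with hepatocyte markers, 0.40 and 0.42 with limma and 0.22 with total counts without that library, and −0.12 to 0.10 when each library was left out. The share of counts was 0.363 percentage points higher in CDAHFD, and 0.703 by TPM. The related lists, 8 higher and 57 lower with TMM, had 34 and 10 with total counts, 35 and 8 with hepatocyte markers, 5 and 33 scaled to the summed members, 38 and 8 with limma at either pseudocount, 29 and 10 with total counts without Normal diet replicate 2, and 35 lower scaled to members without it; leaving out each library gave 5 to 10 higher and 47 to 58 lower. Cell type markers called lower were 8 with TMM, 4 with total counts (with or without that library), 2 with hepatocyte markers and 2 with limma, and 5 to 9 without each library.

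Of 76 tested named genes, these changed direction where 1 of the values was called: Rpl22 (0.04 with total counts, 0.10 with hepatocyte markers, 0.08 with limma at both pseudocounts), Rpl35a (0.01 with hepatocyte markers), Rpl7 (0.06 with hepatocyte markers, 0.04 with limma), Rps3a1 (0.04 with hepatocyte markers, 0.01 with limma) and Rps4x (0.30 with total counts, 0.37 with hepatocyte markers, 0.35 with limma). In 33 named genes the sign changed while neither value was called. The cause of these changes was not tested.

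With the replicate number as a replicate block, 3 members were higher and 3 lower, with a median of 0.06, against 4046 and 3311 of all 14215 genes. Same-numbered libraries correlated at −0.047, 0.069 and 0.118, so the numbers were not taken to pair the samples. The members' median standard error was 0.14 on the log2 scale. With TMM the smallest change called among the members was −0.29 ± 0.10, in Rpl22, while Rpl30 at −0.31 ± 0.12 was not called. Larger changes were not called either where the standard error was larger, as in Rps10 at 0.37 ± 0.32 and Rpl10a at 0.35 ± 0.17. Changes of these sizes and smaller can thus be missed. With 3 libraries per diet no single value can reach an exact permutation p under 0.05.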
